A study of Mus musculus with 6 samples.

Results

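The genes described here encode the CB1 cannabinoid receptor and enzymes that make and break down the endocannabinoids, the lipid messengers of this receptor. They are Cnr1, Dagla, Daglb, Mgll, Faah, Napepld, Abhd6 and Abhd12, 8 of the 22180 genes that the array annotation names singly. They were listed by function and not by their values, although with earlier results of these data known. Each is read by 1 probe set, the group of short probes that measures a gene's RNA, so no choice between probe sets was needed. The data are GeneChip Mouse Gene 2.0 ST arrays of amygdala RNA, with 1 array for each of 3 KO pools and 3 WT pools. KO mice lacked IP3K-A, the neuronal enzyme encoded by Itpka that phosphorylates IP3, and WT mice were their littermates. All were males of C57BL/6N background aged 10 to 15 weeks for which no treatment is named, and each pool combined tissue of several mice of 1 genotype.

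Endocannabinoids are made on demand in the membrane of an active neuron and travel backward across the synapse, where CB1 on the axon terminal reduces transmitter release. Their main form, 2-arachidonoylglycerol (2-AG), comes from the same lipid cleavage as IP3: phospholipase C releases IP3 and diacylglycerol together, and diacylglycerol lipase turns the diacylglycerol into 2-AG. Anandamide, the other main form, is made from N-acylated membrane lipids. In the amygdala CB1 is best known from terminals of cholecystokinin-containing interneurons, and the system is known for its part in fear extinction and anxiety.

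None of the 8 genes passed a threshold for a change between KO and WT amygdala. Estimated changes ran between a 1.05-fold lower level in KO for Daglb and Faah and a 1.12-fold higher level in KO for Napepld, 4 genes being above WT and 4 below it. By limma 0 of 8 passed an adjusted p under 0.05, where 0.00902% of all genes did. An unadjusted limma p under 0.05 was reached by 0 of 8, against 6.52% of all genes. The methods' thresholds, over 1.2-fold with an unadjusted p under 0.1, were passed by 0 of 8 in limma, against 3.01% of all genes, and by 0 of 8 in the methods' t-test, against 1.82%. The KO and WT pools overlapped in all 8 as deposited, while they did not overlap in 13.7% of all genes. At such shares a count of 0 among 8 genes does not set them apart from other genes.

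How large a difference these arrays could have missed was read from the intervals. For 7 of the 8 genes, all but Napepld, the 95% interval of the KO minus WT difference lay inside a 1.2-fold change in both directions, which held for 49.7% of all genes and for 73.5% of the 3920 genes of like brightness, those with mean log2 intensities within the range of the 8. Without KO 2, the pool with low oligodendrocyte markers, or without WT 1 the count was 4 of 8. The intervals come from limma, each covers 1 gene, and they were read in this way after the values were seen. In tissue pools, fewer cells of a type and less RNA per cell cannot be told apart.

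**Figure D1:**
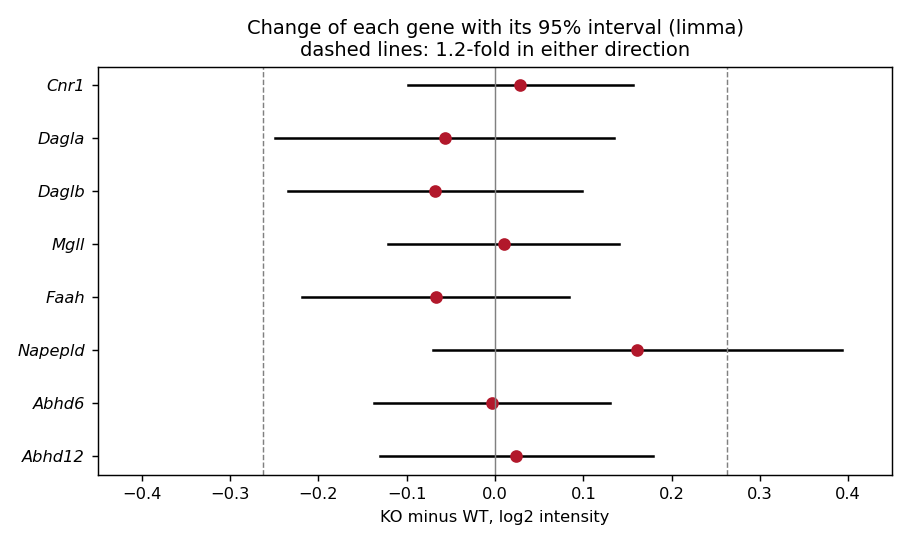
KO minus WT difference of each gene on the log2 intensity scale (points) with its 95% interval from limma (bars). The dashed lines mark a 1.2-fold change in either direction, and of the 8 bars only that of Napepld, from −0.07 to 0.39, crosses one.

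The arrays matched their labels in the deleted gene. Itpka had log2 intensities of 6.76, 6.95 and 6.96 in KO pools, against 8.85, 8.90 and 8.96 in WT pools (adjusted p = 2.61e-04 by limma), although where its probes lie relative to the deletion is not given in the sources used here. Of 9 markers of central amygdala neurons, 7 lay above the median intensity of all genes, and Sst, a peptide of inhibitory neurons, averaged 12.37 in KO and 12.43 in WT. Of the 9, 4 were above and 5 below WT, and 1 passed the methods' thresholds in limma, 11.11% against 3.01% of all genes. It was the receptor gene Crhr1, with a difference of −0.27 without overlap (adjusted p = 0.729 by limma). Markers of choroid plexus, striatum and oligodendrocytes varied between pools. All 7 choroid plexus markers were above WT, and their mean was 8.49 in KO 1 and between 6.97 and 7.21 in the other KO pools, against 6.91 to 7.02 in WT pools. All 13 measured striatal markers were below WT, and their mean was 9.46 in KO 3 and 8.99 and 9.02 in the other KO pools, against 9.56 and 9.62 in WT 1 and WT 2 and 9.15 in WT 3. Of 8 oligodendrocyte markers 6 were below WT. Their mean was 8.92 in KO 2 and 9.23 and 9.34 in the other KO pools, against 9.23 to 9.36 in WT pools. In limma 3 oligodendrocyte (37.5%), 3 striatal (23.08%) and 3 choroid plexus markers (42.86%) passed the methods' thresholds, against 3.01% of all genes. In the methods' t-test 0, 2 and 0 of them passed, against 1.82% of all genes. Beyond a fit with the striatal mean as a covariate, in which 4 of the 8 intervals lay inside 1.2-fold, and fits without each pool, the part of these cells in the values of the 8 genes was not tested. All 8 genes were brighter than most, with mean log2 intensities between 8.55 and 10.01, where the median of all genes was 7.01. Brightness depends on the probes as well as on the RNA, so the genes are not ranked by it.

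Cnr1, the CB1 receptor gene, was nearly the same in every pool. Its log2 intensity was 8.860, 8.815 and 8.805 in KO pools, against 8.808, 8.791 and 8.796 in WT pools. KO 1 stood highest, and KO 3 lay just below WT 1, so the groups overlapped narrowly, and did not overlap once the arrays were centered on their medians, or without KO 3 or WT 1. Its spread within groups (pooled SD 0.021) was smaller than that of almost all genes, 0.9% of which had a smaller one. The log2 difference was 0.03 (SE 0.055, 95% interval −0.10 to 0.16, adjusted p = 0.924 by limma; two-sided exact permutation test over the 6 pools, p = 0.2, where 0.1 is the smallest possible), a 1.02-fold level with an interval of 0.934 to 1.11. Without KO 1, the pool with high choroid plexus markers, the difference was 0.01.

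Of 8 markers of CCK-type interneurons, the cells rich in CB1, 4 were above and 4 below WT and 0 passed a threshold, while 4 intervals lay inside 1.2-fold. The groups did not overlap in 2 of the 8, 25% against 13.7% of all genes, the synuclein gene Sncg with a difference of 0.12 and the glutamate transporter gene Slc17a8 with 0.09. The RNA editing enzyme gene Adarb2 differed by 0.22 with overlap (95% interval −0.046 to 0.495). The mean of the 8 markers ran from 8.44 to 8.51 in KO pools and from 8.39 to 8.47 in WT pools. The cholecystokinin gene Cck itself averaged 11.76 ± 0.02 in KO and 11.75 ± 0.01 in WT (SD, n = 3 pools each). The 6 measured markers of GABAergic neurons at large were all below WT, none past a threshold, with means of 8.62 to 8.79 in KO pools and 8.71 to 8.77 in WT pools. Neither of the intracellular partners of CB1 passed a threshold. Cnrip1, which binds the tail of the receptor, differed by 0.06 (95% interval −0.08 to 0.21) and Sgip1, which slows its internalization, by 0.06 (−0.08 to 0.19).

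The enzymes that make 2-AG were not set apart either. Dagla encodes the diacylglycerol lipase that provides most synaptic 2-AG in the adult brain. Its log2 intensity was 9.53, 9.67 and 9.61 in KO pools, against 9.53, 9.79 and 9.64 in WT pools. Pool 1 of both genotypes was low and WT 2 was high, and the difference of −0.06 (SE 0.08, 95% interval −0.25 to 0.14, adjusted p = 0.899 by limma) was 0.01 without WT 2. Daglb, the second diacylglycerol lipase, which has a larger part in macrophages and microglia, was 9.21, 9.18 and 9.15 in KO pools, against 9.16, 9.22 and 9.37 in WT pools. A single pool, WT 3, stood above the other 5, and the difference of −0.07 (SE 0.07, 95% interval −0.23 to 0.10) was −0.01 without it. The 8 microglial markers averaged 8.19 to 8.28 in KO pools and 8.26 to 8.34 in WT pools, with 3 above and 5 below WT. In limma 1 of them, C1qb at −0.33, passed the methods' thresholds, 12.5% against 3.01% of all genes. The groups did not overlap in 2 of them, 25% against 13.7% of all genes. The part of microglia in the values of Daglb was not tested.

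Among the enzymes that break down 2-AG, Mgll and Abhd6 had the narrowest intervals of the 8 genes after Cnr1. Mgll, the monoacylglycerol lipase that removes most 2-AG in the brain, was 8.83, 8.89 and 8.87 in KO pools, against 8.87, 8.87 and 8.83 in WT pools. These 6 values spanned 0.068 on the log2 scale, and the difference was 0.01 (SE 0.06, 95% interval −0.12 to 0.14). Abhd6, a hydrolase that acts near the site of 2-AG synthesis, was 10.03, 10.02 and 9.99 in KO pools, against 10.07, 9.99 and 9.99 in WT pools. Its difference of −0.003 (95% interval −0.14 to 0.13) was the smallest of the 8. Abhd12, which also cleaves lysophosphatidylserine and whose loss causes a neurodegenerative disease in humans, was 9.81, 9.83 and 9.69 in KO pools, against 9.72, 9.73 and 9.81 in WT pools. KO 3 was the lowest of all and KO 2 the highest, and the difference was 0.02 (SE 0.07, 95% interval −0.13 to 0.18). Abhd12 is the 1 gene of the 8 on chromosome 2 with Itpka, 286 protein-coding genes away in the gene table of GRCm38.p6.

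**Figure D2:**
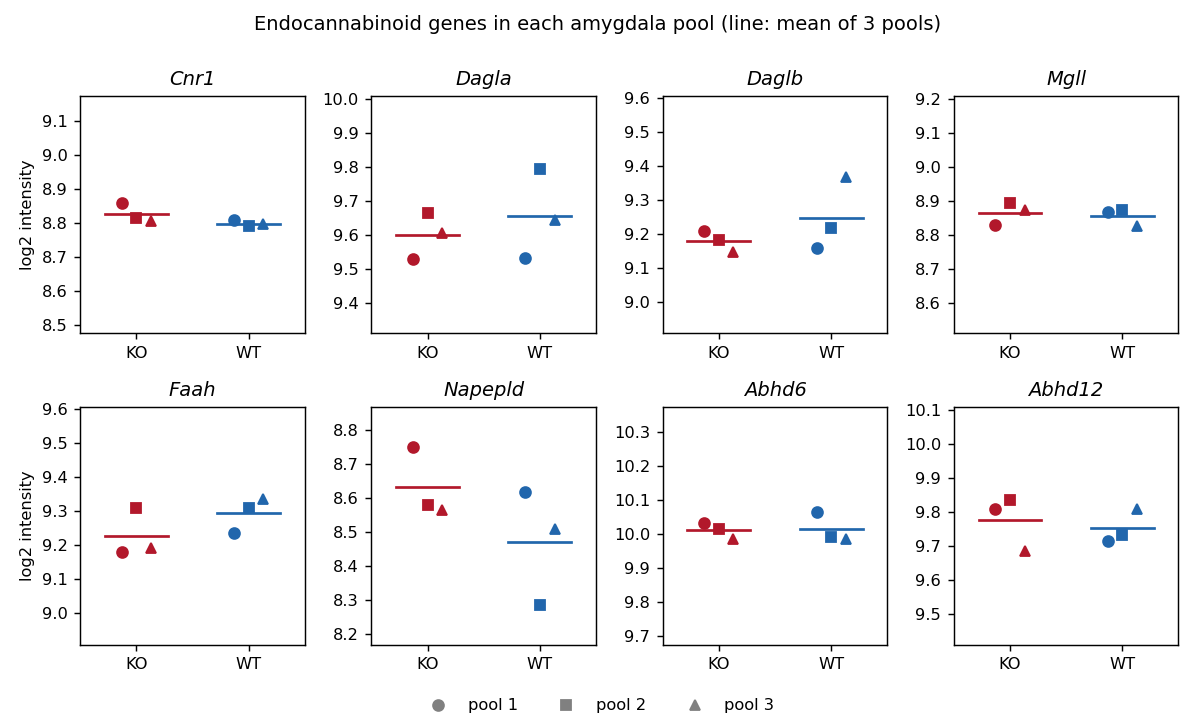
Log2 intensity of each of the 8 genes in 3 KO pools (red, left) and 3 WT pools (blue, right), with the group means as lines and the same axis length in each panel. Cnr1, Mgll and Abhd6 vary by less than 0.1 over the 6 pools, and Napepld varies by 0.465 with WT 2 lowest.

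Of the 2 genes of anandamide turnover, Faah, the hydrolase that ends anandamide signals, was slightly lower and Napepld slightly higher in KO, both within the spread of the pools. Faah was 9.18, 9.31 and 9.19 in KO pools, against 9.23, 9.31 and 9.33 in WT pools. KO 2 equalled WT 2, and the difference was −0.07 (SE 0.065, 95% interval −0.22 to 0.08, adjusted p = 0.843 by limma).

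Napepld encodes the phospholipase D that releases anandamide and other N-acylethanolamines from their precursors, and it had the smallest p of the 8. Its log2 intensity was 8.75, 8.58 and 8.57 in KO pools, against 8.62, 8.29 and 8.51 in WT pools. WT 1 lay above KO 2 and KO 3, so the groups overlapped, and the range was set by a high KO 1 and a low WT 2. The difference was 0.16 (SE 0.10, 95% interval −0.07 to 0.39, adjusted p = 0.776 by limma; two-sided exact permutation test, p = 0.3), or 1.12-fold with an interval of 0.953 to 1.31. It was 0.07 without WT 2, 0.10 without KO 1 and 0.10 with the striatal mean as a covariate.

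**Figure D3:**
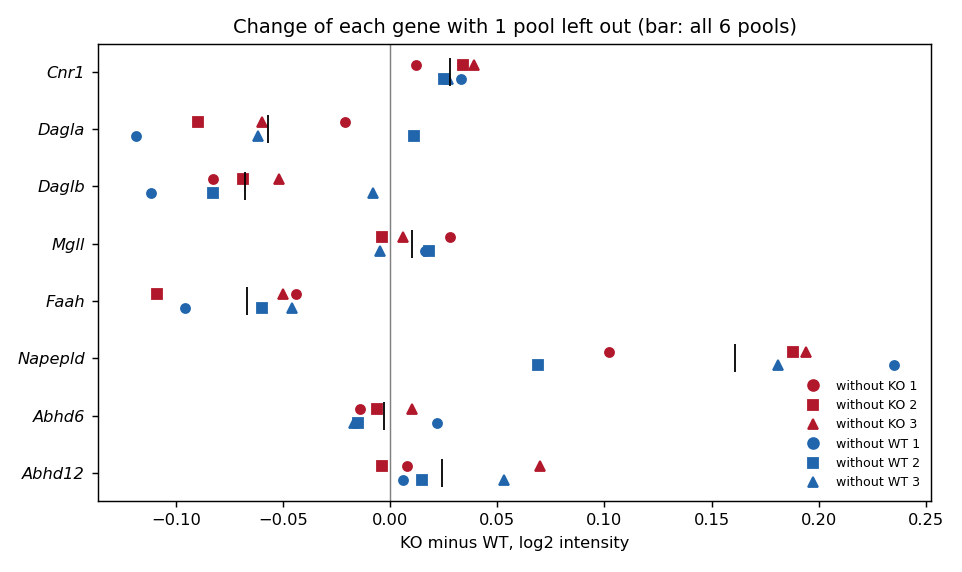
KO minus WT difference of each gene on the log2 intensity scale with all 6 pools (black bar) and with 1 pool left out (red, without a KO pool; blue, without a WT pool). Napepld stays above 0, between 0.069 and 0.235, while the points of Dagla, Mgll, Abhd6 and Abhd12 fall on both sides of 0.

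By a fixed rule, the genes most like Cnr1 and Napepld over the 6 pools were named. Among 11089 genes at or above the median intensity, Pearson's r with Cnr1 was highest for the zinc transporter gene Slc39a7 (0.998), the lipid phosphatase gene Mtmr4 (0.995) and the histone methyltransferase subunit gene Ash2l (0.993), and with Napepld for the secretory pathway gene Erp44 (0.996), the vesicle fusion gene Nsf (0.996) and the predicted gene Gm7265 (0.995). So few points make such values common: r was over 0.9 for 338 genes with Cnr1 and for 495 with Napepld. These values are a description over 6 pools.

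The start regions of the genes were read from the RefSeq promoter table of GRCm38.p6, which gave windows for 6 of the 8 genes, some with several start sites, 10 windows in all. Each runs from 250 bases before to 50 after a start site. Their share of G and C ran from 46.3% to 76.3%, where the median of all 32851 windows was 52.7%. Searched on both strands, the TATA box letters TATAAA were in 0 of the 10 windows and in 13.62% of all windows. The GC box letters GGGCGG were in 6 of the 10, from 4 genes (Cnr1, Faah, Mgll and Abhd6), and in 35.66% of all windows. Both windows of Abhd6 overlap and hold the same match, so the 6 are not separate sites. The letters AAGATGGC, a form of the YY1 motif, were sought after the window of Napepld had been read and were in 1 of the 10, that of Napepld, and in 2.75% of all windows. The windows of the receptor gene and of the gene with the smallest p are shown 5′ to 3′ on the strand of the gene, with matches to any of the 3 motifs on either strand in capitals; no match overlaps another.
Cnr1, chr4:33924014-33924313, plus strand, 5 matches to the GC box letters: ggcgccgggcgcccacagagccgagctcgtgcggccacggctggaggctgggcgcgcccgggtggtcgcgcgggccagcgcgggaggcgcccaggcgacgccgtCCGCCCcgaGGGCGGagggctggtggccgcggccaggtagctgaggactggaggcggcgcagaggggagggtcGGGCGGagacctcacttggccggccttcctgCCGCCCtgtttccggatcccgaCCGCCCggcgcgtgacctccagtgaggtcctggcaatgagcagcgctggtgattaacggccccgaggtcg
Napepld, chr5:21701573-21701872, minus strand, 2 matches to AAGATGGC on opposite strands: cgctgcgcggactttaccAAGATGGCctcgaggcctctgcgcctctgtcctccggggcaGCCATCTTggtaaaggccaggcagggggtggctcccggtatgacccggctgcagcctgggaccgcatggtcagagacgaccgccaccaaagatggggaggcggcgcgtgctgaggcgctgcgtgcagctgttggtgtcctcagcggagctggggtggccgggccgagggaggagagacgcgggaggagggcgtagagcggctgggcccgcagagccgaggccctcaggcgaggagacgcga

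Other genes of the pathway were taken from 8 lists by function, 52 genes of which 49 have a probe set here. Of the 49, 28 were above and 21 below WT, with a median log2 difference of 0.03, against 0.00 over all genes. In limma 1 gene, 2.04%, passed the methods' thresholds, and the groups did not overlap in 8 genes, 16.3%, both near the shares over all genes given above. By limma 0 of the 49 passed an adjusted p under 0.05, and 3 had an unadjusted p under 0.05, 6.12% against 6.52% of all genes. In the methods' t-test 1 of the 49 passed their thresholds, against 1.82% of all genes.

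**Figure D4:**
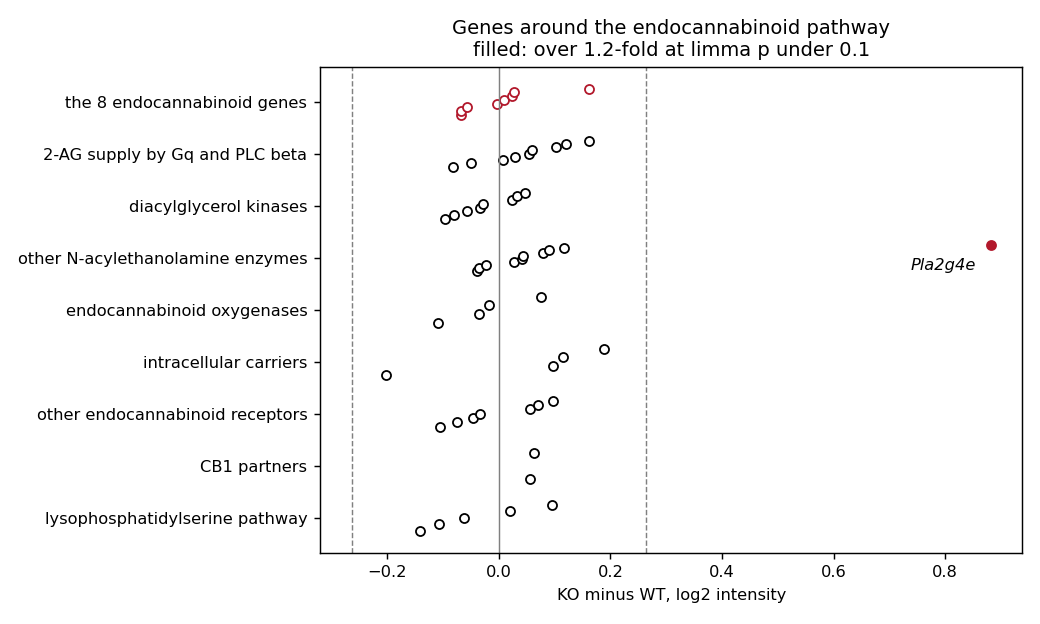
KO minus WT difference on the log2 intensity scale of the 8 endocannabinoid genes (top row) and of the 49 other genes of the pathway by list. The filled point is Pla2g4e at 0.88, the 1 gene past the methods' thresholds, and all others lie inside the dashed lines at 1.2-fold.

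That gene was Pla2g4e, among the 10 other enzymes of N-acylethanolamine metabolism. It encodes a calcium-dependent N-acyltransferase that makes the lipids on which the Napepld product acts. Its log2 intensity was 8.90, 8.93 and 9.11 in KO pools, against 7.88, 8.12 and 8.30 in WT pools, with no overlap. The difference was 0.88 (SE 0.12, 95% interval 0.61 to 1.15), or 1.84-fold. It did not pass the adjusted test (adjusted p = 0.272 by limma), except with an intensity trend and robust estimation (0.0114, within a range of 0.0114 to 0.941 over the alternatives). Pla2g4e lies 10 protein-coding genes from Itpka on chromosome 2, and a difference carried by the chromosome around the deleted gene and one due to loss of the enzyme cannot be told apart here. The study chose this gene on the same arrays, so its value here is no independent evidence. It also measured Pla2g4e by qRT-PCR and reported strongly higher levels in KO animals. The other 9 genes of this list, which include the N-acylethanolamine hydrolase Naaa at 0.08 and the phosphatase gene Ptpn22 at 0.12, differed by less than 1.2-fold. Ptpn22 was dim, with a mean log2 intensity of 4.99.

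Of 9 measured genes of Gq and phospholipase C beta signaling, upstream of 2-AG, 0 passed the methods' thresholds. Of the 9, 7 were above WT, with a median difference of 0.05, where 11061 of all 22180 genes were above WT. Among the 3920 genes with mean intensities in the range of the 8 endocannabinoid genes, 2333 were above WT. The 9 genes lie outside that range, so these are not genes of their brightness. The muscarinic receptor gene Chrm3 was 8.60, 8.67 and 8.56 in KO pools, against 8.48, 8.44 and 8.44 in WT pools, a difference of 0.16 (SE 0.06, unadjusted p = 0.0268 and adjusted p = 0.729 by limma). Plcb4 was 8.48, 8.51 and 8.49 in KO pools, against 8.40, 8.34 and 8.38 in WT pools, a difference of 0.12 (SE 0.055, adjusted p = 0.741 by limma). The groups did not overlap in 3 of the 9, 33.3% against 13.7% of all genes, namely Chrm3, Plcb4 and Plcb1. Plcb1 was 10.37, 10.42 and 10.42 in KO pools, against 10.35, 10.34 and 10.33 in WT pools. Plcb2, Plcb1 and Plcb4 lie on chromosome 2 with Itpka, 32, 203 and 204 protein-coding genes away. Plcb2, the nearest of these, differed by 0.10 (SE 0.07) with overlap. The part of the chromosome around the deleted gene in these values was not tested. Grm5, the glutamate receptor gene best known for driving 2-AG release, differed by 0.01.

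The 8 measured diacylglycerol kinases, which divert diacylglycerol from 2-AG to phosphatidic acid, had a median difference of −0.03, with 3 above and 5 below WT and overlapping groups in all 8. Dgki had the smallest p, at −0.08 (95% interval −0.23 to 0.07), followed by Dgkq at −0.06.

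Of the 4 fatty acid carriers, which take anandamide through the cell, 3 were above WT and 1 below, and 0 passed the methods' thresholds. Fabp3 was 9.46, 9.55 and 9.62 in KO pools, against 9.80, 9.66 and 9.76 in WT pools, a difference of −0.20 (SE 0.07, unadjusted p = 0.0214 and adjusted p = 0.729 by limma) with no overlap. It rests on the brightest probe set of Fabp3, since the mean of the gene's probe sets differed by −0.08 (unadjusted p = 0.412 by limma). Fabp7, a carrier of astrocytes and progenitors, was 11.72, 11.48 and 11.41 in KO pools, against 11.26, 11.34 and 11.45 in WT pools, a difference of 0.19 (SE 0.10, adjusted p = 0.741 by limma) with overlap. Without KO 1, the pool with high choroid plexus markers, it was 0.095, and with the striatal mean as a covariate 0.078. The 9 astrocyte markers averaged 9.62 to 9.69 in KO pools and 9.60 to 9.66 in WT pools.

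Of the 4 oxygenases that convert endocannabinoids, the lipoxygenase gene Alox5 differed by −0.11 (95% interval −0.26 to 0.05) without overlap and Alox12 by 0.07 with overlap. Alox12 was dim, with a mean log2 intensity of 5.9. The groups of Alox5 were barely apart, with 7.309 in KO 3 and 7.311 in WT 3. Of the 7 other receptor genes for these lipids, all with overlapping groups, the CB2 receptor gene Cnr2 differed by 0.10 (95% interval −0.15 to 0.34) and Gpr55 by −0.11 (−0.33 to 0.12). Single pools carried both: without WT 3 Cnr2 differed by −0.009, and without KO 3 Gpr55 differed by −0.01. Both genes were dim, with mean log2 intensities of 6.28 and 5.68. In the pathway of lysophosphatidylserine, the substrate of the Abhd12 enzyme, the acyltransferase gene Lpcat3 was 9.48, 9.44 and 9.41 in KO pools, against 9.65, 9.61 and 9.50 in WT pools. Its difference was −0.14 (SE 0.065, adjusted p = 0.741 by limma). The receptor gene Gpr34 differed by −0.11 with overlap, and its 3 KO values lay within the range of the WT pools. Gpr34 was dim as well, with a mean log2 intensity of 6.27.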

How the data were processed

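The deposited table holds log2 intensity values of 41345 probe sets on 6 arrays, prepared by the authors in GCOS with the RMA algorithm, per the submitters' processing notes. RMA corrects background, equalizes the distributions of the arrays by quantiles and summarizes each probe set. Versions are not given in the sources used here. Quantile normalization gives all arrays the same distribution, so shifts of the whole transcriptome cannot be seen. The number of arrays limits the precision.

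The KO minus WT difference was fitted to these values in limma 3.58.1 in R 4.3.3 (lmFit and eBayes, no covariates) over the 23521 probe sets that the platform annotation pairs with exactly 1 symbol, with Benjamini-Hochberg adjustment over all of them. Shares over all genes used the brightest probe set of each of 22180 genes. The limma fit and the t-test were tested on simulated data. Per the labels the pools are biological replicates, 3 per genotype.

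The 8 genes, the lists, the markers and the rules were chosen with earlier results of these data known. All 8 genes were named, and of each pathway list the 2 genes with the smallest p and any past the methods' thresholds. Genes like Cnr1 and like the gene with the smallest p were the 3 with the highest Pearson's r. Other genes were named after their values were seen. Figures were drawn with matplotlib 3.10.9.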

Additional observations from a re-analysis of the deposited data

How the results depend on the processing

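The differences of the 8 genes were recomputed in 16 other ways: the methods' t-test, a trend with robust estimation, centered arrays, repeated quantile normalization, bright probe sets only, all probe sets, the replicate block, array weights, the striatal marker mean as covariate, the mean of a gene's probe sets, and each pool left out. No adjusted p fell under 0.602, and 0 of 8 genes passed the methods' thresholds in any of them. Of 128 recomputed differences, 119 kept their direction. Those that turned were all close to 0: Mgll with quantile normalization repeated (−0.007), Abhd6 with centered arrays (0.007), Abhd12 with the striatal mean as covariate (−0.045), and some with a pool left out. The cause was not tested. With a pool left out the log2 differences ran from −0.119 to 0.011 for Dagla, from −0.005 to 0.028 for Mgll, from −0.017 to 0.022 for Abhd6 and from −0.004 to 0.07 for Abhd12, and among the pathway genes from −0.009 (without WT 3) to 0.203 for Cnr2 and from −0.198 to 0.007 (without WT 2) for Gpr34. Gpr55 kept its direction, from −0.198 (without KO 2) to −0.01 (without KO 3).

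The groups did not overlap in 1 of the 8 genes, Cnr1, with centered arrays and in 0 to 3 (Cnr1, Daglb and Napepld without WT 1) with a pool left out, where fewer values make this easier. The number of intervals inside 1.2-fold was 4 with the striatal covariate and 4 to 6 with a pool left out, which also leaves fewer values. It was 6 with the methods' t-test, repeated quantile normalization, all probe sets or array weights.

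Same-numbered KO and WT pools did not vary together (correlations of deviations from −0.034 to 0.092, and 1 of 3 KO pools correlated best with its own number), so the numbers were not taken as pairs. With the replicate block the difference of Napepld was 0.161 (adjusted p = 0.738 by limma), and 7 intervals lay inside 1.2-fold. Itpka lost its call by the methods' t-test (adjusted p = 0.242), at a difference of −2.02.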
